A study of Homo sapiens with 54 samples.

Results

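TRA2A and TRA2B are paralogous splicing factors of the SR-like family. Each has an RNA recognition motif flanked by arginine and serine rich domains, binds GAA-rich stretches in exons, and promotes inclusion of the exons it binds. Both genes carry a poison exon, whose inclusion sends the transcript to nonsense-mediated decay, so the level of either protein can feed back on the 2 mRNAs. What follows is the effect on gene expression of extra *TRA2B* in LN319, a human glioma cell line, as measured by RNA-seq.

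Of the 54 libraries of the series, 6 made up this comparison. In 3 of them LN319 cells overexpressed *TRA2B* and received control guides (TRA2B-OE Control KO), and in the other 3 the cells overexpressed luciferase, a protein that human cells do not make, and received the same kind of guides (Luc Control KO). The cDNAs were delivered on lentiviral vectors, and the guides came on a second lentivirus, together with Cas9, 7 days before the cells were collected. The study lists AAVS1 and ROSA26 as control loci for knockout, and which of them was cut in these libraries, the number of separately made TRA2B-OE populations and the promoter of the cDNA are not given in the sources used here. The remaining 9 LN319 libraries, which shared the fit, were Luc TRA2A KO, Luc TRA2B KO and TRA2B-OE TRA2A KO, with 3 each. LN229, a second glioma line, was treated in the same way and is used below as a comparison. The study made these cells to ask whether extra *TRA2B* makes up for loss of *TRA2A*. The 6 libraries here show the overexpression without guides against *TRA2A*. By immunoblot, the study found TRA2A strongly lowered in LN319 cells that overexpressed *TRA2B*. Effects of more *TRA2B* and of less TRA2A cannot be told apart here.

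Genes were chosen by level only: a TPM, the share of all transcripts scaled by length, of at least 1 in at least 4 of the 15 LN319 libraries kept 19303 of the 55906 gene names listed. Levels below are TPM as deposited. Log2 fold changes are from values scaled between libraries, so they can differ slightly from the ratio of the printed levels. A gene is called at an adjusted p under 0.05 (limma, two-sided, Benjamini-Hochberg over all genes kept), and a DEG is a called gene whose log2 fold change is beyond 1 in either direction. The labels do not say whether replicates were separate cultures, so p-values measure the spread between these samples.

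The cell line was checked against markers of glial and neural progenitor cells. Their summed level was 5903 to 6062 TPM in Luc Control KO and 5687 to 6013 TPM in TRA2B-OE Control KO, most of it from *VIM* and *CD44*. *SOX2* was at 375 to 422 TPM in Luc Control KO, *GFAP* at 1.76 to 2.80 TPM and *OLIG2* at 0.0211 TPM or less, so 2 defining glial genes were barely present. Epithelial markers summed to 414 to 451 TPM and to 471 to 506 TPM, with 10 of 12 at a mean of 1 TPM or more in both groups. Hematopoietic markers had 3 of 11 at that level (33.3 to 38.8 and 29.5 to 37.2 TPM) and endothelial markers none of 7. Mitochondrially encoded genes took 12.1 to 12.8% of TPM in Luc Control KO and 13.5 to 14.7% in TRA2B-OE Control KO, and 17318 to 17743 against 17731 to 18412 genes reached 1 TPM. What part these differences had in the results was not tested. In bulk RNA, fewer cells of a type and less RNA per cell cannot be told apart.

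The overexpressed gene was checked first. *TRA2B* stood at 90.2, 83.5 and 89.1 TPM in Luc Control KO and at 777, 840 and 678 TPM in TRA2B-OE Control KO. The groups were far apart, and replicate 3 was the lowest of the overexpressing libraries. The log2 fold change was 3.03 (SE 0.0933, adjusted p = 2.14e-09, limma), or 8.18-fold. Transcripts from the cDNA and from the endogenous gene are counted together and cannot be told apart in these values. Guides against *TRA2B* moved the gene the other way, to 30.6, 32.4 and 29.3 TPM in Luc TRA2B KO, so the 5 LN319 groups span *TRA2B* levels from 29.3 to 989 TPM.

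*TRA2A*, the paralog, was at 101, 107 and 113 TPM in Luc Control KO and at 93.7, 91.4 and 88.2 TPM in TRA2B-OE Control KO. All overexpressing libraries lay below all luciferase libraries. The fold change of -0.32 (log2, SE 0.0809, adjusted p = 0.0466, limma) sat at the edge of the threshold, and it was no longer called when any 1 of the 6 libraries was left out (-0.35 to -0.27), on TPM as deposited (-0.23) or with only the 6 libraries in the fit (-0.29). In cells with *TRA2A* guides the direction was the opposite, from 33.9, 34.3 and 38.3 TPM in Luc TRA2A KO to 50.7, 51.3 and 42.4 TPM in TRA2B-OE TRA2A KO, a log2 fold change of 0.37 (adjusted p = 0.0133). That call was lost with Luc TRA2A KO replicate 2, TRA2B-OE TRA2A KO replicate 1 or TRA2B-OE TRA2A KO replicate 2 left out and with only these 6 libraries in the fit (adjusted p = 0.0517, 0.0553, 0.0583 and 0.0692). The difference between these 2 effects, 0.68, did not pass the test across all genes (adjusted p = 0.117). An exact permutation test of 3 against 3 libraries gave p = 0.1 for each paralog, two-sided, which is the smallest value this design allows. Of the 837 stretches of 31 bases in the *TRA2B* coding sequence, 0 occurred in the annotated transcripts of *TRA2A*, and other parts of *TRA2B* were not compared.

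**Figure D1:**
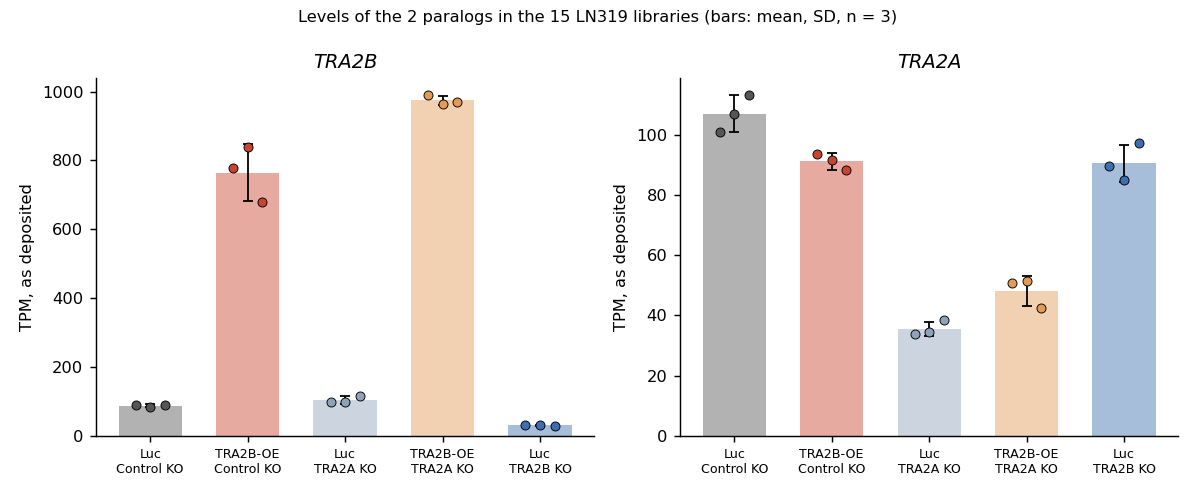
TPM of *TRA2B* (left) and *TRA2A* (right) in the 15 LN319 libraries, as deposited; points are libraries, bars the mean of 3 and whiskers the SD. *TRA2B* is at 678 to 840 TPM in TRA2B-OE Control KO against 83.5 to 90.2 TPM in Luc Control KO, while *TRA2A* is slightly lower, at 88.2 to 93.7 against 101 to 113 TPM.

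Across the transcriptome, the called changes were mostly small. Of the 19303 genes tested, 832 were called (4.31%), 416 higher (2.16%) and 416 lower (2.16%). The median log2 fold change of all genes was -0.022, and 461 of the called genes (55.4%) changed by less than 0.5 on the log2 scale. Among the 134 DEGs, 94 were higher and 40 lower. At an unadjusted p under 0.05 there were 4818 genes. Loss of *TRA2B*, read against the same Luc Control KO libraries, called 8231 genes (42.6%), with 3598 higher (18.6%) and 4633 lower (24%).

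The even split of 416 and 416 depended on the scaling: on the TPM as deposited, which moved the median of all genes to 0.063, the split was 655 higher and 252 lower. The number of calls depended on which libraries shared the fit. With only the 6 libraries compared it fell to 40 (36 higher, 4 lower). Leaving out TRA2B-OE replicate 1 gave 139 calls and leaving out TRA2B-OE replicate 3 gave 1728, with 262 to 438 for the other libraries. TRA2B-OE replicate 3 was the overexpressing library nearest the luciferase mean in 238 of the 416 genes called higher (57.2%) and in 244 of the 416 called lower (58.7%), against 45.3% over all genes.

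**Figure D2:**
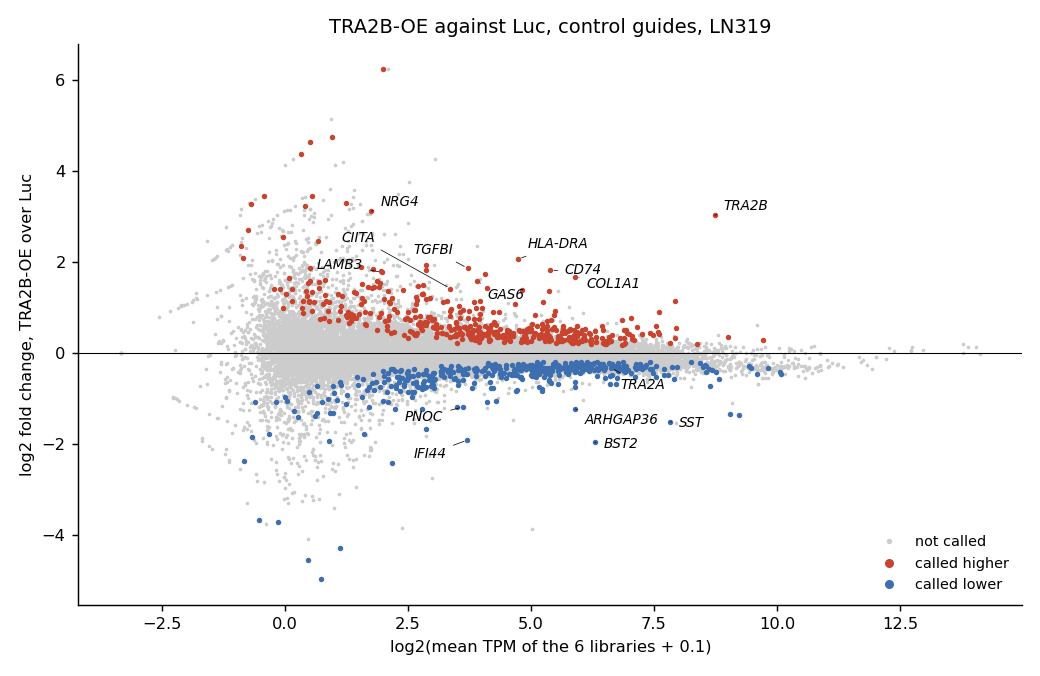
Log2 fold change of TRA2B-OE over Luc (control guides, LN319) against the log2 mean TPM of the 6 libraries, one point for each of 19303 genes; red and blue points are the 416 genes called higher and the 416 called lower. *TRA2B* stands alone at high expression, the labelled matrix and antigen presentation genes lie above the cloud of points, and *BST2*, *IFI44* and *SST* lie below it.

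By type, 688 of the called genes were protein-coding (325 higher, 363 lower) and 88 had no type in the RefSeq table. The 7 called genes beyond 4 on the log2 scale were small RNA genes and pseudogenes, each listed at 0 in at least 1 of the 6 libraries, and they are not described singly. Of all 19303 genes, called or not, 3174 were higher and 1747 lower with no overlap between the 3 and 3 libraries. Overlap was read on the TPM as deposited, where the median log2 fold change of all genes was 0.063. Calls were made on the scaled values, with a median of -0.022. Both come from the same 6 libraries, so neither is support for the other. Among the 832 called genes 818 had no overlap, and 611 of these were protein-coding with a mean of at least 5 TPM in the higher group. From these 611 the 15 largest rises and 15 largest falls were taken.

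Antigen presentation by MHC class II supplied 7 of the 15 largest rises. Class II molecules are cell-surface heterodimers, DR, DP and DQ, that show peptides to helper T cells. CD74, the invariant chain, fills their groove until the DM heterodimer helps load a peptide. CIITA is the master coactivator of these genes and does not itself bind DNA: it is recruited by the RFX complex (RFX5, RFXAP, RFXANK), CREB and NF-Y, which sit on the X, X2 and Y boxes of class II promoters. These genes are normally active in professional antigen-presenting cells and are induced in other cells by interferon gamma.

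Of 18 class II genes, a set put together after the values had been seen, 13 were measured. The 10 that present, load or chaperone peptides or activate the set were all called higher, and the 3 RFX subunits were not called; the median log2 fold change of the 13 was 1.52. The background for a higher call is 2.16%. *HLA-DQA1*, *HLA-DQA2*, *HLA-DQB2*, *HLA-DOA* and *HLA-DOB* did not reach the level filter. All 10 calls stood with each of the 6 libraries left out in turn, and 5 were left when only the 6 libraries entered the fit.

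The promoters of 5 of the called genes are shown so that the letters of the X2 and Y boxes, where class II regulators are known to bind, can be looked for. Each run is the 130 bases just upstream of a RefSeq start (GRCh38.p14), 5′ to 3′ on the strand of the gene, with TGATGATG (as in the X2 box) and ATTGG or its reverse complement CCAAT (as in the Y box) in capitals.
HLA-DRB1, chr6:32589849-32589978, minus strand: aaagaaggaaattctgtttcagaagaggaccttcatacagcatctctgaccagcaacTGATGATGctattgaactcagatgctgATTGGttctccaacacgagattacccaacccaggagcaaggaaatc
HLA-DMA, chr6:32953098-32953227, minus strand: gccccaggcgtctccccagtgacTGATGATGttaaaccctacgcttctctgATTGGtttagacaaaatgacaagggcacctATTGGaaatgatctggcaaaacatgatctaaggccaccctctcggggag
HLA-DMB, chr6:32941029-32941158, minus strand: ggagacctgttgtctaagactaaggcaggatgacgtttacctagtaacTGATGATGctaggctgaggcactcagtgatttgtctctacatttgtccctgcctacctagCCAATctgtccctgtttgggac
HLA-DPB1, chr6:33075860-33075989, plus strand: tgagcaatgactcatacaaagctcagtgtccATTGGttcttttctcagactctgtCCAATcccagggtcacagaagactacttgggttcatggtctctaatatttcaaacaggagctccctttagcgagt
CD74, chr5:150412911-150413040, minus strand: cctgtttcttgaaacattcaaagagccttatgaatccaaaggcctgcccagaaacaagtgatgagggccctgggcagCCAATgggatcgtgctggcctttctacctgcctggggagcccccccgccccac

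Of the 18 genes, 16 had a promoter entry, and *HLA-DRA* and *CIITA* had none. A gene was counted if any of its entries held the string. In the 250 bases upstream, on either strand, TGATGATG occurred in 4 of the 16 and ATTGG in 13, with both in 4. Over all 35116 promoter entries of the table the shares were 0.795%, 32% and 0.302%. Of the 5 shown, *HLA-DPB1* and *CD74* lack TGATGATG, and *HLA-DPA1*, not shown, had neither string. Both letter strings were chosen after these promoters had been read, and a match in the letters is a description of the sequence only.

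The regulator came first. *CIITA* was at 6.55, 5.47 and 3.89 TPM in Luc Control KO and at 17.0, 15.5 and 12.6 TPM in TRA2B-OE Control KO. The groups did not overlap, and within each the third replicate was the lowest. The change was 1.42 on the log2 scale (SE 0.183, adjusted p = 0.00187, limma). By contrast *RFX5* had values of 75, 78.8 and 79.4 against 74.9, 77.3 and 72.9 TPM, *RFXANK* 109 to 126 against 108 to 130 TPM, and *RFXAP* 8.26 to 8.89 against 8.76 to 9.25 TPM, with log2 fold changes of -0.14, -0.08 and 0.00 that were not called.

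Among the presenting chains, *HLA-DRA*, the alpha chain of DR, went from 10.3, 10.1 and 8.64 TPM to 39.3, 41.3 and 50.4 TPM. Every overexpressing library was well above every luciferase library. The log2 fold change of 2.07 (SE 0.141, adjusted p = 1.48e-05) is a 4.19-fold rise. For *HLA-DPA1*, the DP alpha chain, the levels were 9.05, 7.95 and 5.23 TPM and then 24.8, 25.6 and 27.5 TPM, a log2 fold change of 1.74 (adjusted p = 0.000281). *HLA-DPB1*, its beta chain, moved from 2.03 to 3.87 TPM up to 10.8 to 12.2 TPM (1.93, adjusted p = 0.00103). *HLA-DQB1*, the DQ beta chain, moved from 3.11 to 4.53 TPM up to 8.76 to 11.1 TPM (1.31, adjusted p = 0.00827). The DR beta genes *HLA-DRB1* and *HLA-DRB5* are near-identical copies among which reads can be split, so their separate levels are uncertain: *HLA-DRB1* went from 2.36 to 3.77 TPM up to 10.9 to 12.0 TPM and *HLA-DRB5* from 1.10 to 1.81 TPM up to 4.87 to 6.15 TPM, each with a log2 fold change of 1.84.

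Loading factors moved with the chains. *CD74* was at 19.2, 16.9 and 16.4 TPM in Luc Control KO and at 56.5, 62.0 and 81.0 TPM in TRA2B-OE Control KO. It was the most abundant of the 10 in both groups, and replicate 3 was the highest of the overexpressing libraries. Its log2 fold change was 1.82 (SE 0.152, adjusted p = 7.06e-05). *HLA-DMA* and *HLA-DMB* changed by 1.04 (adjusted p = 0.00767) and 1.52 (adjusted p = 0.00488), to 14.0 to 16.9 TPM and to 3.98 to 4.59 TPM. *CTSL*, a lysosomal protease that can trim the invariant chain and was picked after its values were seen, rose from 180 to 199 TPM to 286 to 309 TPM (0.55, adjusted p = 0.00163).

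The same genes read across the other LN319 groups as follows. In cells with *TRA2A* guides the same 10 of 13 were called higher, with a median of 1.77, against a background of 5.75% higher calls. These cells share no library with the comparison above, but both sets of guides went into cells already stably expressing luciferase or *TRA2B*. *HLA-DRA* there was at 8.38, 8.63 and 6.98 TPM with luciferase and 36.6, 36.9 and 45.8 TPM with *TRA2B*. After loss of *TRA2B* it was at 5.04, 4.32 and 5.46 TPM, below the range of Luc Control KO. Of the 13 genes 10 were called lower and 1, *RFX5*, higher, beside 24% and 18.6% over all genes, with a median of -0.91. *CIITA* followed with 3.57, 4.05 and 3.20 TPM. Because Luc Control KO serves both contrasts, the loss and the gain of *TRA2B* are set side by side and no relation between them is drawn.

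**Figure D3:**
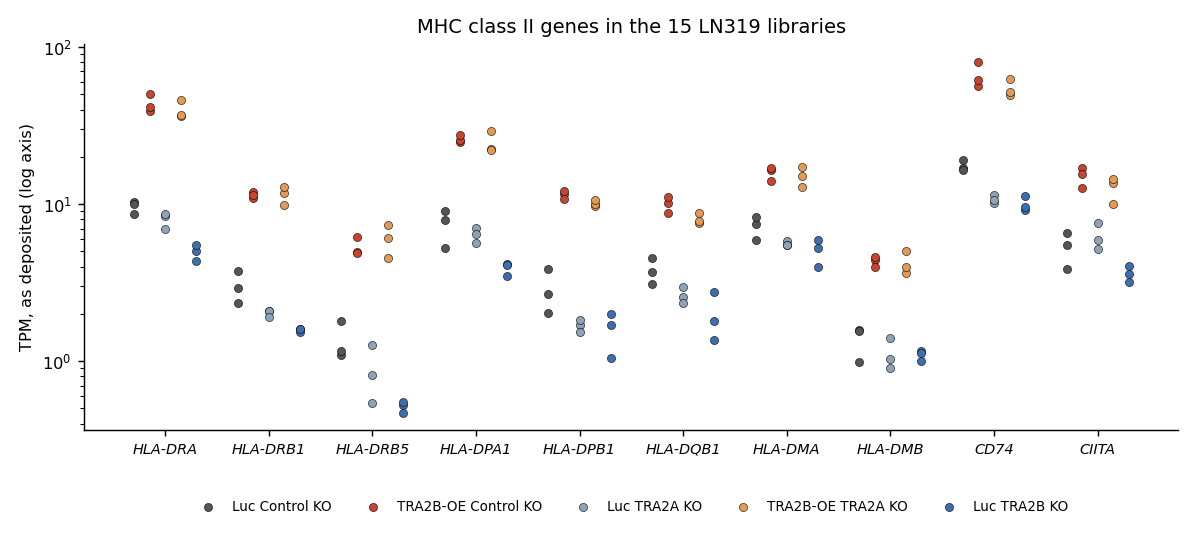
TPM (log axis) of the 10 called MHC class II genes in the 15 LN319 libraries, one point per library and one colour per group. In each gene both TRA2B-OE groups lie above all 3 Luc groups, for *HLA-DRA* at 36.6 to 50.4 TPM against 4.32 to 10.3 TPM.

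MHC class I genes, which present peptides to cytotoxic T cells, had no called rise. Of 17 class I genes measured, 1 was called, *PSMB9*, an immunoproteasome subunit, and it was lower (21.6, 22.9 and 22.1 TPM against 11.9, 14.6 and 15.1 TPM, log2 fold change -0.77, adjusted p = 0.0163). The list median was -0.26. *IRF1* and *GBP1*, which interferon gamma induces in many cells and which were picked after their values were seen, were not called (0.10 and -0.26).

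Extracellular matrix genes made up a second group of rises. Of 24 matrix genes measured, 9 were called higher and 0 lower, beside 2.16% each over all genes, with a median of 0.22 over the list. *COL1A1*, the alpha 1 chain of type I collagen, was at 26.4, 29.4 and 25.7 TPM in Luc Control KO and at 101, 91.2 and 85.6 TPM in TRA2B-OE Control KO. The groups were far apart, and the log2 fold change of 1.68 (SE 0.0683, adjusted p = 3.77e-08) had the smallest p after *TRA2B* of the genes named here. *COL1A2*, whose product joins that of *COL1A1* in the type I trimer, was not called: it had 3.22, 3.31 and 3.17 TPM against 1.5, 1.21 and 3.09 TPM (-0.90, adjusted p = 0.0816).

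*TGFBI*, a secreted protein that links collagen and integrins, went from 5.09, 4.89 and 5.69 TPM to 21.9, 24.2 and 16.3 TPM (1.87, adjusted p = 3.22e-05). Here and in *COL8A1*, *VCAN* and *THBS1* the third overexpressing library was the lowest of its group while still above all luciferase libraries. *COL8A1*, a short-chain collagen, reached 49.1 to 68.4 TPM from 19.0 to 23.5 TPM (1.37, adjusted p = 0.000463). *COL5A1*, a fibril-nucleating collagen, reached 3.61 to 3.88 TPM from 1.08 to 1.48 TPM (1.35, adjusted p = 0.00123). *VCAN*, the proteoglycan versican, reached 22.4 to 43.7 TPM from 12.6 to 17.5 TPM (1.09, adjusted p = 0.0135). The other called members were *THBS1* (0.90), *COL5A2* (0.42), *TNC* (0.29) and *COL6A2* (0.23). With Luc replicate 1 or TRA2B-OE replicate 1 left out, 4 matrix genes were called higher, and with only the 6 libraries in the fit 3 were. *FN1*, fibronectin, one of the best expressed matrix genes at 1358 to 2141 TPM, was not called (0.14).

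Integrins are the cell receptors for this matrix and laminins are basement membrane chains. Of 19 such genes measured, 6 were called higher and 0 lower, beside 2.16% each over all genes, with a median of 0.21. *LAMB3*, the beta 3 chain of laminin 332, went from 1.83, 2.06 and 0.947 TPM to 7.45, 6.86 and 3.89 TPM, with no overlap and with the third library lowest in both groups (1.78, adjusted p = 0.00743). *ITGB4*, the integrin subunit that binds this laminin, rose from 27.0 to 33.0 TPM to 45.3 to 61.0 TPM (0.73, adjusted p = 0.00562). *ITGA11*, a collagen receptor subunit, and *LAMB1* changed by 0.54 and 0.46, *ITGA2* by 0.42 and *ITGA3* by 0.33, each with an adjusted p of 0.0347 to 0.0447. These smaller changes depended on the fit: with only the 6 libraries none of the 6 was called, 2 or 3 were with any library but TRA2B-OE replicate 3 left out, and 9 were without that one. *COL18A1*, a basement membrane collagen among the 15 largest rises, went from 2.78, 2.73 and 2.40 TPM to 9.79, 7.95 and 5.48 TPM (1.40, adjusted p = 0.0107).

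*MMP2*, a collagen-degrading protease, was the only one of 9 matrix metalloproteases and inhibitors called, from 37.9 to 42.2 TPM to 50.4 to 64.7 TPM (0.45, adjusted p = 0.00953).

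**Figure D4:**
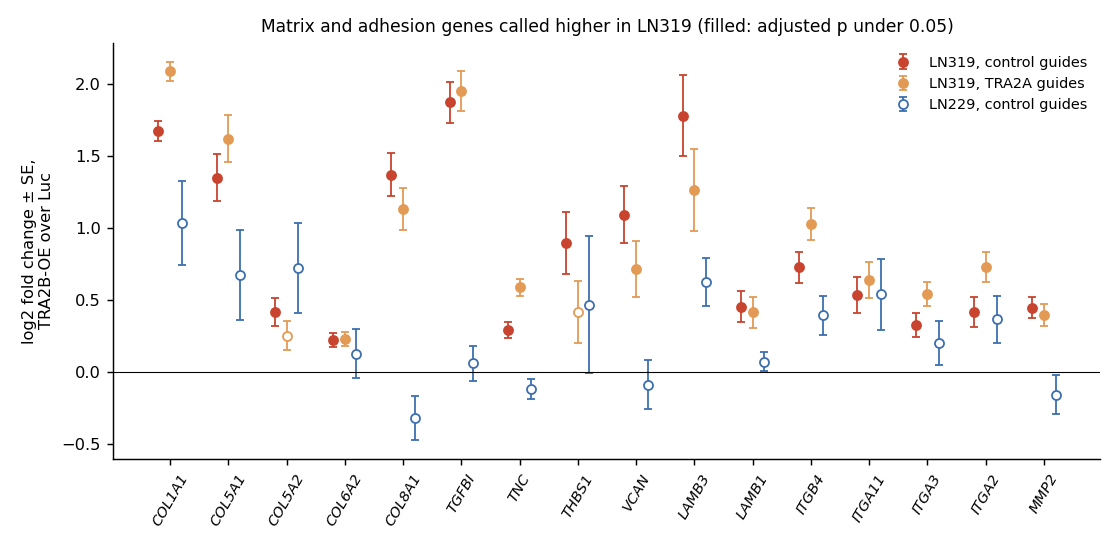
Log2 fold change of TRA2B-OE over Luc with its SE for 16 matrix and adhesion genes called in LN319 with control guides (red), in LN319 with *TRA2A* guides (orange) and in LN229 (blue); filled points have an adjusted p under 0.05. Of the red points all are filled by choice of the genes, 14 of the orange points are, and none of the blue points is, beside 1.03% of all LN229 genes called. *COL1A1* has 1.68, 2.09 and 1.04.

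The remaining large rises belonged to no list. *NRG4*, a ligand of the ERBB4 receptor, had the largest log2 fold change of the named genes, 3.12, but also the widest spread: it was at 0.196, 2.12 and 0.221 TPM in Luc Control KO and at 7.06, 3.07 and 7.05 TPM in TRA2B-OE Control KO (SE 0.731, adjusted p = 0.0365). One library in each group, replicate 2, lay close to the other group. *GAS6*, the ligand of the AXL family of receptor kinases, went from 7.12, 7.53 and 6.18 TPM to 26.3, 24.9 and 16.8 TPM (1.58, adjusted p = 7.06e-05). *MYH3*, embryonic myosin heavy chain, went from 8.51, 9.19 and 8.48 TPM to 30.1, 24.1 and 22.1 TPM (1.43, adjusted p = 0.000191). In both the groups were clearly apart. *PLEKHS1*, a pleckstrin homology domain protein, rose from 1.38 to 1.95 TPM to 4.88 to 5.90 TPM (1.59, adjusted p = 0.000146).

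The largest falls began with interferon-stimulated genes. *BST2*, or tetherin, which holds budding virus at the cell surface, was at 135, 152 and 79.7 TPM in Luc Control KO and at 24.9, 25 and 53.7 TPM in TRA2B-OE Control KO. *IFI44* was at 26.2, 24.5 and 10.9 TPM and then at 5.95, 3.98 and 6.48 TPM. The groups did not overlap in either gene, yet in both the third luciferase library was the lowest of its group and the third overexpressing library the highest. Their log2 fold changes were -1.95 (SE 0.441, adjusted p = 0.0323) and -1.91 (SE 0.477, adjusted p = 0.0444). They were the only 2 of the 32 interferon-stimulated genes measured to be called, beside a background of 2.16% lower calls. The list median was -0.55, and 13 members had an unadjusted p under 0.05, as did 4818 of all 19303 genes. *MX1*, for one, had 104, 115 and 49.0 TPM against 40.6, 37.5 and 53.5 TPM, so that the third libraries of both groups met and the change of -1.04 was not called (adjusted p = 0.163). Both calls were lost when Luc replicate 1, Luc replicate 2, TRA2B-OE replicate 1 or TRA2B-OE replicate 2 was left out. In cells with *TRA2A* guides 0 of the 32 were called by limma, and the median was -0.07.

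The falls named next belonged to no list. *SST*, somatostatin, was at 320, 277 and 385 TPM in Luc Control KO and at 99.8, 101 and 177 TPM in TRA2B-OE Control KO, with no overlap and the third library the highest of both groups (-1.51, adjusted p = 0.0161). *PNOC*, the nociceptin precursor, went from 17.8, 18.9 and 13.3 TPM to 8.11, 7.41 and 7.57 TPM (-1.18, adjusted p = 8.67e-05), and its 3 overexpressing libraries were almost equal. *KISS1R*, the kisspeptin receptor, fell from 4.13 to 5.84 TPM to 2.12 to 3.47 TPM (-1.04, adjusted p = 0.0434). *ENHO*, which encodes the secreted peptide adropin, fell from 22.3 to 28.5 TPM to 10.4 to 17.2 TPM (-1.05, adjusted p = 0.0163).

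*P2RX5*, an ATP-gated channel, went from 5.02, 5.60 and 6.07 TPM to 2.84, 2.88 and 2.57 TPM (-1.06, adjusted p = 0.000921). *KCNJ12* and *KCND3*, an inward rectifier and a voltage-gated potassium channel, fell by 0.96 and 0.84 on the log2 scale, to 3.99 to 4.17 TPM and to 3.84 to 5.57 TPM. In each, all overexpressing libraries lay below all luciferase libraries.

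The other 6 of the 15 falls were *ARHGAP36*, an inhibitor of protein kinase A (-1.23, from 80.1 to 82.5 TPM to 29.6 to 51.2 TPM), *FIBIN* (-1.18), *SLC15A3*, a lysosomal peptide transporter (-0.86), *ASPHD1* (-0.86), *ACTA2*, smooth muscle actin (-0.82), and *ELMO1*, a partner of DOCK proteins in cell migration (-0.82). Of the 15 falls, the third overexpressing library was the one nearest the luciferase mean in 13. The calls of the falls depended more on the fit than those of the rises: 4 of the 15 falls and 13 of the 15 rises were called without TRA2B-OE replicate 1, and 1 and 10 with only the 6 libraries in the fit.

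Splicing factor genes are read beside the same 4.31% of all genes called, and beside 4818 of all 19303 with an unadjusted p under 0.05. None of the 12 SR protein genes was called by limma (7 had an unadjusted p under 0.05), with a median of -0.07. The best expressed, *SRSF2* and *SRSF11*, were at 493, 498 and 484 against 512, 488 and 532 TPM and at 409, 446 and 412 against 567, 499 and 475 TPM (-0.03 and 0.19). Among 9 kinases that phosphorylate SR proteins, 1 was called, *CLK1*, from 56.5 to 63.7 TPM to 79.6 to 93.3 TPM (0.42, adjusted p = 0.0111). Of 37 hnRNP and other splicing regulator genes, *RBM39* was called higher (0.21) and *PTBP1*, the polypyrimidine tract binding protein, lower (-0.18, from 304, 315 and 323 TPM to 300, 294 and 287 TPM). Neither any of 15 NMD factors nor any of 14 snoRNA host genes was called (5 and 6 had an unadjusted p under 0.05).

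Cell cycle genes were looked at next, beside 4818 of all 19303 genes with an unadjusted p under 0.05. *CHEK1*, *OFD1* and *CNTRL*, whose exons the study followed in libraries of this series, and *CEP192* and *NASP* had log2 fold changes of 0.05 to 0.22, and 2 of the 5 had an unadjusted p under 0.05. *CHEK1*, the checkpoint kinase, was at 40.1, 49.1 and 46.6 TPM and then at 48.1, 52.3 and 48.2 TPM. *NASP*, a histone chaperone, was at 388 to 418 TPM and then at 436 to 462 TPM. Of 34 G2/M genes 0 were called and 13 had an unadjusted p under 0.05, with a median of -0.13 (*CDC20* -0.19, *TOP2A* -0.07). Of 34 S phase genes 0 were called and 8 had an unadjusted p under 0.05, with a median of -0.18 (*MCM7* -0.20, *PCNA* -0.24). Of 24 p53 targets 0 were called and 5 had an unadjusted p under 0.05, with a median of -0.05 (*GADD45A* 0.03, *BAX* -0.31). These are gene levels, and a change in the choice of exon can leave such a level as it was.

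Metabolic and stress lists are read beside 4.31% of all genes called, and beside 4818 of all 19303 with an unadjusted p under 0.05. Of 25 sterol and fatty acid synthesis genes 3 were lower, *ACACA*, acetyl-CoA carboxylase (-0.38, from 49.6 to 54.7 TPM to 41.0 to 44.7 TPM), and the squalene enzymes *FDFT1* (-0.37) and *SQLE* (-0.26). Of 26 ATF4 and ER stress genes the serine and glycine enzymes *PSAT1* (-0.33) and *SHMT2* (-0.31) were lower. The glucose transporters *SLC2A3* (0.49) and *SLC2A1* (0.30) were the 2 of 24 hypoxia genes called, both higher, and the exporter *ABCC3* (0.59) the only one of 18 NRF2 targets. None of 14 cytokine, 20 immediate early, 13 ERK feedback and 13 mitochondrially encoded genes was called by limma (4, 7, 4 and 0 had an unadjusted p under 0.05). Of 9 glial markers 1 was called, *SOX2*, a progenitor transcription factor, which was lower (-0.27), while log2 fold changes of the list reached 0.62. Of 10 epithelial markers 1 was called, *CLDN3*, a tight junction protein, which was lower (-0.60), while the list reached 0.56 and its summed level was higher. Without TRA2B-OE replicate 1, none of the members of the SR kinase, hnRNP, class I, ATF4, hypoxia, NRF2, glial and epithelial lists was called by limma, and 1 sterol gene was. With only the 6 libraries in the fit none of these lists had a call. Leaving out Luc replicate 1, Luc replicate 3 or TRA2B-OE replicate 2 also ended those of the ATF4, NRF2, hnRNP and epithelial lists, and leaving out Luc replicate 3 or TRA2B-OE replicate 2 those of the hypoxia list. Leaving out Luc replicate 2 ended those of the hnRNP, glial and epithelial lists, as leaving out Luc replicate 1 or TRA2B-OE replicate 2 did for the glial list, and leaving out Luc replicate 3 that of the class I list. The 3 hematopoietic markers and the 1 endothelial marker measured were not called and had an unadjusted p of 0.05 or more.

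**Figure D5:**
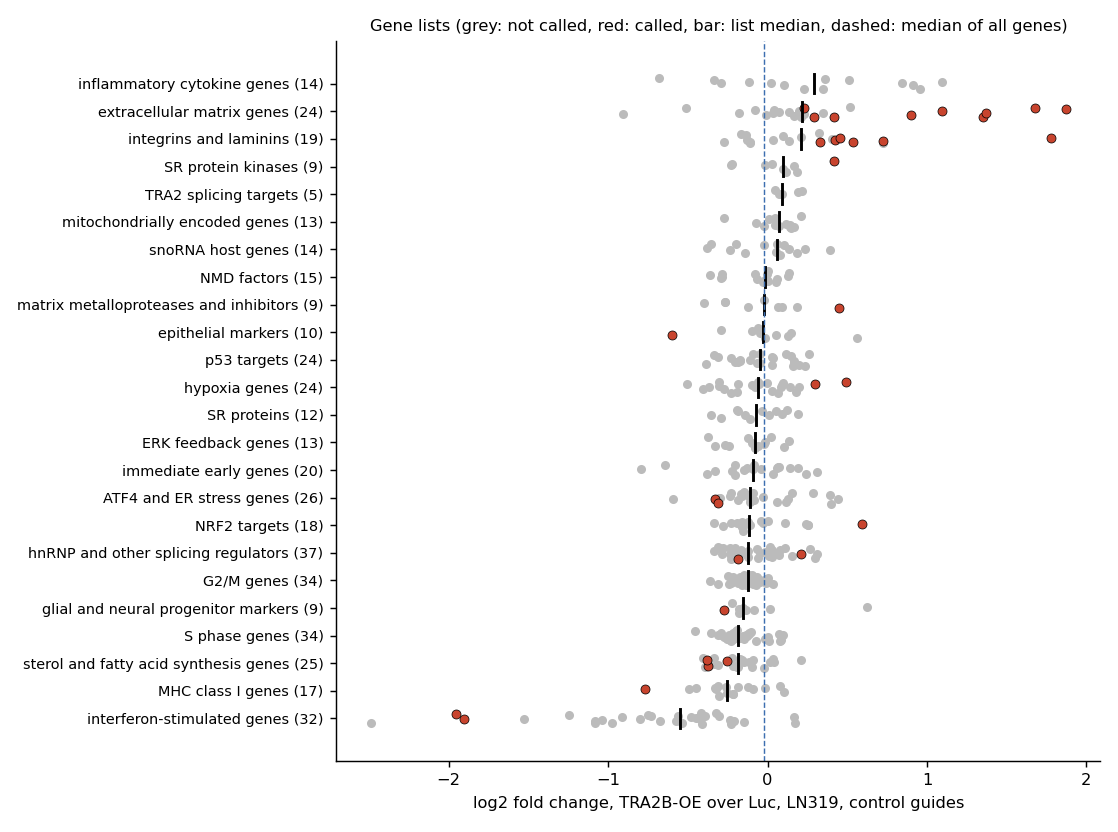
Log2 fold change of TRA2B-OE over Luc (LN319, control guides) for every measured gene of 24 lists, with the number of genes in brackets; red points are called, black bars are list medians and the dashed line is the median of all genes, -0.022. Matrix genes and integrins and laminins have the most members called higher, 9 and 6, and the interferon-stimulated list has the lowest median, -0.55, with 2 called genes.

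Cells with *TRA2A* guides gave the same contrast in 6 other libraries. TRA2B-OE TRA2A KO against Luc TRA2A KO called 2063 genes (10.7%), 1110 higher (5.75%) and 953 lower (4.94%), with 264 DEGs. Of the 832 genes called with control guides, 492 were called here in the same direction (59.1% of the 832 and 23.8% of the 2063), 264 of them higher and 228 lower, and 4 were called in the opposite direction. The sign was shared by 804 of the 832 (96.6%). The groups share no library, although all 15 shared one estimate of the spread. Per the study, both sets of guides went into cells that already stably expressed luciferase or *TRA2B*. A difference fixed between those cells before infection would recur with both sets of guides. Here it cannot be told apart from an effect of *TRA2B*.

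Of the 15 largest rises 13 were called higher with *TRA2A* guides, and the other 2 were *NRG4* and *COL18A1*. *COL1A1* was at 24.7, 24.5 and 19.3 TPM in Luc TRA2A KO and at 103, 105 and 95.1 TPM in TRA2B-OE TRA2A KO (2.09, adjusted p = 2.37e-09). The 3 luciferase and 3 *TRA2B* libraries were again far apart. For *NRG4* the levels were 3.72, 2.88 and 1.87 TPM and 1.11, 6.59 and 1.56 TPM, in full overlap (-0.31, adjusted p = 0.817). Of the 15 largest falls 8 were called lower and 7 were not; *BST2* was among the latter (-1.42, adjusted p = 0.0576), while *PNOC* went from 34.8 to 38.6 TPM to 8.77 to 9.37 TPM (-2.06, adjusted p = 3.16e-07). By list, 10 of 24 matrix genes and 10 of 19 integrin and laminin genes were called higher and none lower. The 5 TRA2 splicing targets had 3 members called higher, *NASP* among them (0.28).

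Whether the effect of *TRA2B* differed between the guides was tested for every gene. Of 19303 genes 4 passed (0.0207%), with 0 under a replicate block or with only the groups compared, and none of the 30 largest rises and falls was among them; 1527 had an unadjusted p under 0.05. So a gene called with one set of guides and missed with the other is not thereby shown to differ. *RNF43*, a membrane ubiquitin ligase that restrains WNT signalling, was the only protein-coding gene of the 4: it was at 19.1, 20.7 and 18.1 TPM against 26.9, 26.6 and 27.5 TPM with control guides and at 8.34, 8.80 and 9.27 TPM against 23.9, 22.2 and 22.6 TPM with *TRA2A* guides. Both rises were called, 0.40 and 1.30, and they differed by 0.90 (adjusted p = 0.019).

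Loss of *TRA2B* was read for the same 30 genes. Over all genes 24% were called lower and 18.6% higher in this contrast. Of the 15 rises, 10 were called lower in Luc TRA2B KO and 1, *NRG4*, higher. *TGFBI* was at 2.27, 3.25 and 2.33 TPM there, below the 4.89 to 5.69 TPM of Luc Control KO, and *COL1A1* at 27.3, 28.4 and 26.1 TPM, within its range. Of the 15 falls, 8 were called higher and 1, *ENHO*, lower. *ARHGAP36* was at 180, 154 and 187 TPM against 80.1 to 82.5 TPM. These values share Luc Control KO with the main comparison and stand here as levels only.

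In LN229, where *TRA2B* started higher, the overexpression was smaller in fold: 202, 232 and 234 TPM in Luc Control KO and 703, 900 and 893 TPM in TRA2B-OE Control KO (log2 fold change 1.86, SE 0.115, adjusted p = 5.9e-06). *TRA2A* fell there from 105, 111 and 111 TPM to 84.3, 74.8 and 81.5 TPM (-0.49, adjusted p = 0.00713), with no overlap. Of 18490 genes 190 were called (1.03%), 147 higher (0.795%) and 43 lower (0.233%), with 55 DEGs. In the 16426 genes measured in both lines, 718 were called in LN319 and 164 in LN229, and 22 were called in both in the same direction (3.06% of the 718 and 13.4% of the 164), with 0 in opposite directions. The sign in LN229 matched for 513 of the 718 (71.4%). The 2 tables were fitted separately, and a difference between the lines was not tested.

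*MYH3* was the only one of the 15 largest rises called in LN229, from 0.824, 0.866 and 1.33 TPM to 3.24, 3.87 and 4.30 TPM (1.80, adjusted p = 0.0414). Of the 15 falls 6 were measured there and 0 were called by limma. Among the genes called in both lines and picked after their values were seen were 3 transcripts with no protein. *ENO1-IT1*, from an intron of the enolase gene, went from 1.46 to 1.95 TPM to 4.78 to 5.21 TPM in LN319 (1.44) and from 0.670 to 1.01 TPM to 5.57 to 5.79 TPM in LN229 (2.52). *CCDC150P1*, a pseudogene, changed by 1.45 and 3.02, and *RP11-635L1.2* by 1.81 and 2.14. *DNPH1*, a nucleotide hydrolase, was lower in both (-0.74 and -0.53).

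The class II and matrix genes of LN319 had no called member in LN229. Only 1.03% of all LN229 genes were called, so counts of 0 in lists this small are near that share. *HLA-DRA* was at 1341, 1051 and 1031 TPM there with luciferase and at 1019, 817 and 799 TPM with *TRA2B* (-0.42, adjusted p = 0.165). Its level in LN319 with luciferase was 8.64 to 10.3 TPM, in a table made separately. *CIITA* was at 56.5, 67.2 and 74.3 TPM and then at 56.5, 64.8 and 62.2 TPM. Of 16 class II genes measured 0 were called, with a median of -0.35. Of 22 matrix and 19 integrin and laminin genes 0 were called, with medians of 0.00 and 0.11, although *COL1A1* was at 4.29, 7.57 and 7.30 TPM with luciferase and at 15.1, 11.8 and 12.8 TPM with *TRA2B*, without overlap (1.04, adjusted p = 0.117).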

How the data were processed

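RNA-seq of polyadenylated RNA from LN319 and LN229 cells was analysed from gene tables. The authors deposited TPM values per gene name, which per their methods came from kallisto on a Gencode annotation of GRCh38. The labels' processing notes list STAR 2.7.3, kallisto 0.48.0 and GRCh38. TPM of the LN319 libraries summed to 959783 to 964610 and keep no record of depth. Error is therefore the spread between the 3 replicates of each group, pooled over all groups of a line. 0 columns lacked a sample.

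Genes with TPM of at least 1 in at least 4 of 15 libraries were put on a common scale with unweighted TMM factors (ratios trimmed by 30%, abundances by 5%) and taken as log2(TPM + 0.1). Fold changes on this scale understate changes of low genes. limma 3.58.1 in R 4.3.3 (mean-variance trend, all 15 libraries of a line) replaced the authors' limma-voom, which needs counts, and was tested on simulated data. Named were *TRA2A* and *TRA2B*, the 15 largest rises and falls among called protein-coding genes without overlap and with at least 5 TPM in the higher group, and in each of 26 lists up to 4 called members or, where none was called, up to 2 of the best expressed. Date-like names were left out. Others were picked after their values were seen. The members and lists were chosen with earlier results of these data known. Alternatives were the pseudocount, filter, scaling, libraries in the fit, a replicate block and each library left out; removal of a trend with transcript length and GC content was added after seeing the data. Over all genes, same-numbered libraries of the main comparison did not vary together, yet a replicate block raised the calls from 832 to 1923. Pairing by replicate number was therefore not settled, and the main fit did not use these numbers.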

Additional observations from a re-analysis of the deposited data

Results flagged for a closer look

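The effect of *TRA2B* overexpression differed between *TRA2A* guides and control guides in 4 LN319 genes by limma's interaction term. With the replicate block, with only the groups compared or without Luc replicate 2 in the fit, 0 genes passed, and 1527 had an unadjusted p under 0.05 as reported. *RNF43* differed by 0.901 on the log2 scale (adjusted p = 0.019). *LINC01133*, a long noncoding RNA, differed by 0.596: it was at 81.2 to 83.0 TPM and 81.4 to 86.4 TPM with control guides, and at 47.0 to 52.5 TPM and 70.0 to 82.1 TPM with *TRA2A* guides (adjusted p = 0.018). *RP11-477H21.2* differed by 1.8, with 5.04 to 5.98 and 4.86 to 5.61 TPM against 1.54 to 2.10 and 4.81 to 6.37 TPM (adjusted p = 0.019). A low-level transcript with a clone-based name differed by 6.32 (adjusted p = 0.00952), but all 3 Luc TRA2A KO libraries were listed at 0 and the highest library of the 4 groups at 2.14 TPM, so this fitted value depends on the pseudocount.

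A further 6 of the 15 largest rises in LN319 had a negative log2 fold change in LN229, where every overexpressing library lay below every luciferase library. How many of all LN229 genes lay apart in this way, on TPM as deposited, was not counted. Whether 6 of 15 is unusual therefore cannot be read from these values. The log2 fold changes in LN229 were -0.416 for *HLA-DRA*, -0.407 for *HLA-DPB1*, -0.339 for *HLA-DRB1*, -0.26 for *CD74*, -0.395 for *HLA-DPA1* and -0.625 for *PLEKHS1*. None was called there, and the difference between the lines was not tested.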

How the results depend on the processing

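All 30 largest rises and falls kept their direction under every alternative in which they passed the level filter (27 at 5 TPM). They had been chosen as called, without overlap and with the largest changes, so a change of direction was hardly possible. Class II calls numbered 10 under all but no filter (11), 5 TPM (8) and only the groups compared (5). Calls of the main comparison numbered 364 with no filter, 40 with only the groups compared (10 of the 15 rises and 1 of the 15 falls), 1923 with the replicate block (711 higher, 1212 lower) and 139 to 1728 with a library left out; of the 832, 36 to 832 stayed called over all alternatives. DEGs numbered 77 with a pseudocount of 1, 68 at 5 TPM, 33 with only the groups compared and 48 to 209 with a library left out. With *TRA2A* guides calls numbered 688 with only the groups compared and 962 to 2512 with a library left out. For the difference between guides there were 17 with no filter, 0 with only the groups compared, 0 with the replicate block and 0 to 6 with a library left out. LN229 gave 88, 1 and 329 under no filter, only the groups and the block, and 30 to 160 with a library left out. Correlations of same-numbered deviations were -0.034 to -0.0092 in the main comparison, 0.0021 to 0.099 with *TRA2A* guides and 0.0015 to 0.21 in LN229. These correlations, taken over all genes, showed no pairing by number in the main comparison, although the replicate block raised its calls. Whether libraries were paired was not settled, there or for the other libraries.

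*TRA2A* was no longer called with no filter (-0.31), at 5 TPM (-0.27), on TPM as deposited (-0.23), with quantile normalization (-0.23), with only the groups compared (-0.29) or with any library left out (-0.35 to -0.27). The rise of *TRA2B* was called under every alternative. Matrix genes called higher were 3 with only the groups compared and 4 to 10 with a library left out. Integrin and laminin genes called higher were 2 with no filter, 0 with only the groups compared, 10 with the replicate block and 2 to 9 with a library left out. Uncalled genes near 0 changed sign: *TOP2A* (0.017 as deposited, 0.091 quantile), *SRSF2* (0.012 at 5 TPM, 0.053 as deposited, 0.11 quantile, 0.018 without the length and GC trend, -0.089 to 0.014 with a library left out), *CHEK1* (-0.031 to 0.12 with a library left out), *RFXAP* (-0.0045 quantile, -0.034 to 0.078 with a library left out) and *RFXANK* (0.0077 as deposited, 0.0085 quantile, -0.19 to 0.0087 with a library left out). Removing the length and GC trend left 991 calls, and the trend accounted for 1.95% of the variance of the fold changes over 81.8% of genes. The cause of these shifts was not tested. TPM hold no depth, so no limit of detection can be given.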

Other observations

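Other gene families were looked at by symbol after the values had been seen. Over all genes 2.16% were called in each direction with control guides, and 4.94% lower with *TRA2A* guides. Of 59 heat shock and J protein genes, 6 were called lower and 0 higher with control guides, and 7 lower with *TRA2A* guides (medians -0.12 and -0.11). They included the cytosolic chaperones *HSP90AA1*, at 990, 957 and 987 TPM against 804, 879 and 815 TPM (-0.32, adjusted p = 0.0213), and *HSP90AB1*, at 757 to 772 TPM against 625 to 682 TPM (-0.33), and also *HSPA8*, *HSPH1*, *DNAJB1* and *DNAJB14*. Of 42 replication-dependent histone genes 4 were lower and 0 higher, and 7 lower with *TRA2A* guides (medians -0.27 and -0.44); *HIST1H1C*, a linker histone, was at 44.6 to 55.1 TPM against 31 to 39 TPM (-0.64). Histone mRNAs mostly lack a poly(A) tail, and these libraries were made from polyadenylated RNA. *RN7SL1* and *RN7SL2*, which encode near-identical 7SL RNAs of the signal recognition particle without a poly(A) tail, were at 638 to 829 TPM and 726 to 912 TPM with luciferase and at 288 to 333 TPM and 320 to 388 TPM with *TRA2B* (-1.34 and -1.35). Of 27 collagen genes 10 were higher and 0 lower, with a median of 0.23.

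Single genes that were called with both sets of guides, again picked after the fact, included *ALDH1A1*, a retinaldehyde dehydrogenase, at 158, 149 and 129 TPM against 358, 395 and 279 TPM (1.15, adjusted p = 7.06e-05; 1.13 with *TRA2A* guides). After loss of *TRA2B* it was at 35.9 to 38.9 TPM. The purine salvage enzyme *APRT* was at 124 to 130 TPM against 76.7 to 91.1 TPM (-0.67), and the elongation factor *EEF1B2* at 506 to 544 TPM against 337 to 433 TPM (-0.57). *SNAI2*, a repressor of epithelial genes, was higher (0.52) and *ZEB1*, another such repressor, lower (-0.54). The clock genes *PER1* (0.30), *PER2* (0.44) and *BHLHE40* (0.27) were higher, and *MYCN* (-0.32) was lower.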
